A study of Mus musculus with 12 samples.

Results

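The miR-16 seed family comprises 7 mature microRNAs (miRNAs) on the array: mmu-miR-15a, mmu-miR-15b, mmu-miR-16, mmu-miR-195, mmu-miR-497, mmu-miR-322 and mmu-miR-503, named below without the species prefix. They were picked by name out of 577 miRNAs and not by a rule on their signal, though with earlier results of these data known. All 7 passed the filter on dim miRNAs, which left 224 for testing. Levels were read with one-colour Agilent miRNA arrays in 4 female Balb/C mouse breast cancer cell lines of wild type genotype, 3 arrays a line. 4T1 is labelled metastatic, while 4TO7, 168FARN and 67NR are labelled non-metastatic, and all 4 are attributed to spontaneous tumours of that strain. The design treats the lines as a progression series and asks which miRNAs accompany the different steps of metastasis. Each step is represented by 1 established line, so a difference between steps is also a difference between 2 lines. The labels leave it unstated whether the 3 repeats were separate cultures, and the p-values therefore measure no more than the spread of these samples, part or all of which may be technical.

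A miRNA is a short RNA that guides an Argonaute protein to messenger RNAs, mainly by pairing of its seed, the bases next to its 5′ end, and lowers their translation and stability. The family is known for repressing cyclins, cyclin-dependent kinases, Bcl2 and other genes of the cell cycle and of survival. It is made from several clusters. miR-15a and 1 copy of miR-16 lie in the noncoding host gene Dleu2, whose human counterpart is lost in many chronic lymphocytic leukaemias. miR-15b and the other miR-16 copy lie in Smc4, which encodes a condensin subunit. miR-195 and miR-497 form a cluster linked to cell cycle exit, and miR-322 (the mouse counterpart of human miR-424) and miR-503 form an X-linked cluster known from muscle differentiation and mammary involution.

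The mature sequences are given to show what the members share and where they part. All 7 members were matched by name to RefSeq (build GRCm38.p6), and the lines below run 5′ to 3′ with the seed, bases 2 to 8, in capitals.

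miR-15a: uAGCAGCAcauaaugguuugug

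miR-15b: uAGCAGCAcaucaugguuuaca

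miR-16: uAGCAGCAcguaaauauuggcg

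miR-195: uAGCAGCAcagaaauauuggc

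miR-497: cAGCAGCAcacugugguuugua

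miR-322: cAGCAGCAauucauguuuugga

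miR-503: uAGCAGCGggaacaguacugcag

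The seed AGCAGCA was shared by 6 members, and miR-503 carried AGCAGCG, a change written A8G against miR-322 with positions counted from 1 at the 5′ end. Outside the seed the members diverged. miR-16 and miR-195 were the closest pair, with 2 differences in 21 shared positions (G10A and U11G, miR-16 first). miR-15a and miR-15b differed at 4 of 22 positions, and miR-497 and miR-503 at 12 of 22. The brightest probe for miR-16 spanned its bases 5 to 22 and that for miR-195 its bases 3 to 21, so that both probes cover the bases at which the pair differs. How much each probe also binds the other miRNA was not measured.

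In GRCm38.p6 miR-15a (chr14:61632075-61632096, minus strand) and a copy of miR-16 (chr14:61631936-61631957) fell within Dleu2. miR-15b (chr3:69009775-69009796, plus strand) and the second copy of miR-16 (chr3:69009918-69009939) fell within Smc4. Both copies give the same mature miR-16, so the array reads their sum and cannot assign it to a locus. miR-497 (chr11:70234730-70234751) and miR-195 (chr11:70235062-70235082, plus strand) lay within no gene of the RefSeq table outside the miRNA genes, and miR-322 (chrX:53054306-53054327) and miR-503 (chrX:53054027-53054049, minus strand) lay within the gene C430049B03Rik. Genes whose symbol begins with Mir were left out of this search, so overlap with other miRNA genes was not looked at.

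Levels below are log2 of the scaled signal of a member's brightest probe, listed by array in the order of the replicate numbers. A miRNA is called read on an array where the scanner software marked it as well above background. Differences are the first line minus the second, ± the standard error (SE), from limma fitted to all 224 tested miRNAs on 12 arrays, with a Benjamini-Hochberg adjusted p below 0.05 as the threshold. Levels of different members are not set against each other, because each probe has its own brightness. The 67NR arrays stood apart. Over the tested miRNAs, arrays of 4T1, 4TO7 and 168FARN correlated at 0.837 to 0.965 with each other and at 0.539 to 0.636 with those of 67NR, and arrays of 1 line at 0.993 to 1.000. The scaling value was 600 to 1213 signal units on those 9 arrays and 358 to 460 units on the 67NR arrays, and the control probe hur_5 averaged 1.25 to 6.36 units on the 9 arrays and 180 to 207 units on the 67NR arrays. The 67NR arrays were on 1 slide together with 168FARN replicate 1, while the other 8 arrays shared a second slide. The part of these differences in the 67NR results below was not tested. None of 7 epithelial marker miRNAs (the miR-200 family, miR-203 and miR-205) was read on all 3 arrays of any line, and miR-200c and miR-141 were each read on 1 array of 67NR. The summed signal of the list was -8.84 to -4.06 units in 4T1, -6.70 to 0.73 in 4TO7, -12.4 to -6.01 in 168FARN and 18.4 to 34.2 in 67NR, and its part in the 67NR results was not tested.

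Between lines most members differed, as did most miRNAs. Against 67NR, 4T1 was lower in 6 members and higher in 1, where 79.5% of all tested miRNAs were called, 47.3% lower and 32.1% higher. The median difference of the members was -1.90, against -0.05 over all tested miRNAs. 4TO7 was lower than 67NR in 5 members and higher in 1 (background 79.9% called, 48.2% lower and 31.7% higher), with a median of -2.12 against -0.12. 168FARN was lower than 67NR in 3 members and higher in 4 (background 87.9% called, 47.8% lower and 40.2% higher), with a median of 0.14 against -0.06. The medians over all tested miRNAs include miRNAs at the floor. Over the 96 miRNAs read on all 12 arrays the median against 67NR was -0.91 in 4T1, -0.67 in 4TO7 and -0.98 in 168FARN. The members among these 96 differed in 4T1 by -1.94 (miR-15a), -0.86 (miR-15b), -2.17 (miR-16) and -0.53 (miR-322).

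Among the other 3 lines members were called in both directions. 4T1 was lower than 168FARN in 5 members and higher in 2 (background 74.1% called, 39.7% lower and 34.4% higher). 4TO7 was lower than 168FARN in 4 members and higher in 1 (background 74.6% called, 39.3% lower and 35.3% higher). 4T1 was lower than 4TO7 in 2 members, miR-322 and miR-503, and higher in 4 (background 60.7% called, 35.7% lower and 25% higher). Against the mean of the 3 other lines, all 7 members were lower in 4T1 (background 87.5% called, 59.4% lower), with a median of -0.61 against -0.34 over all tested miRNAs. That count is not a common fall: without the 67NR arrays in the fit, 4 members were called lower in 4T1 than the mean of 4TO7 and 168FARN and 1 higher, and with no scaling of the arrays 2 were called lower and 1 higher. Shares close to the background say little about the family, and the directions of single members follow below.

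**Figure D1:**
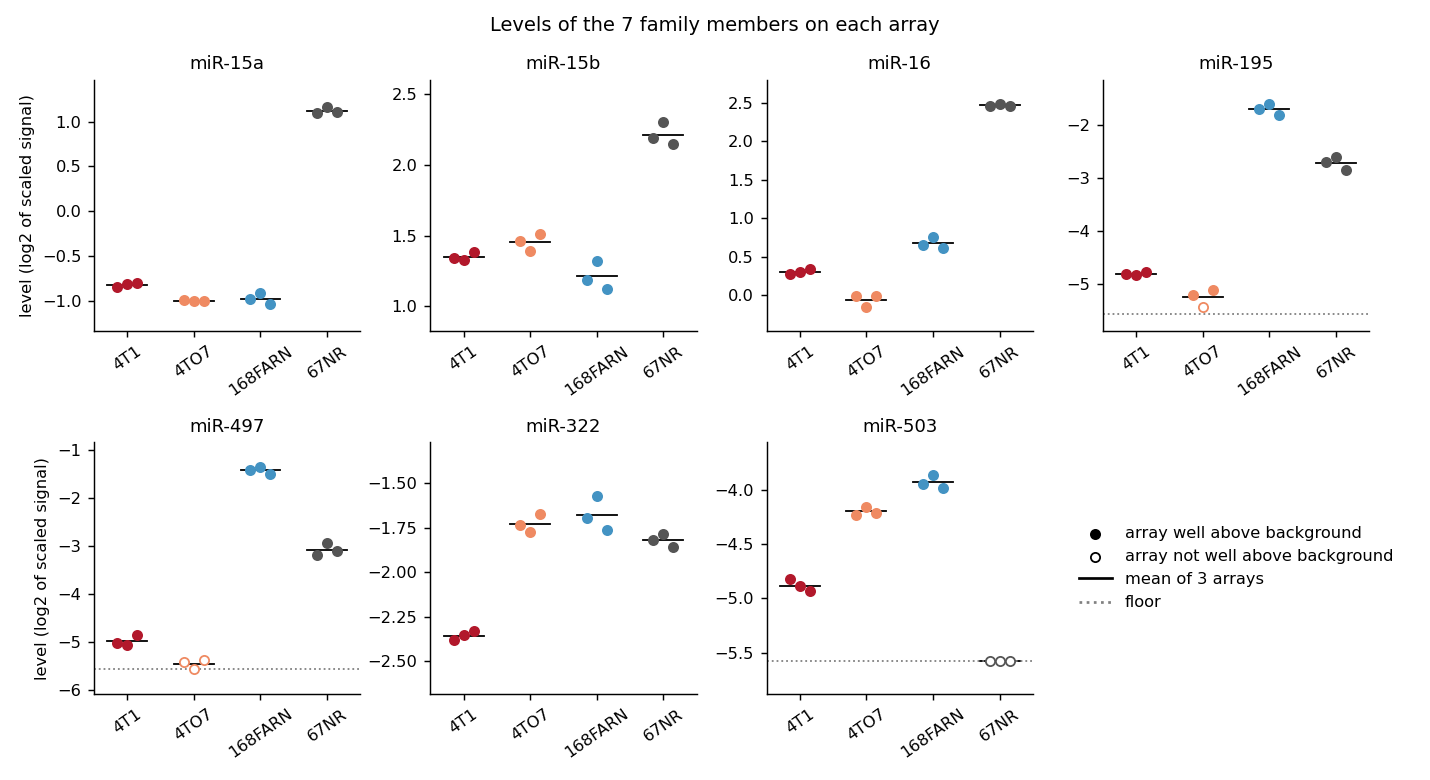
Level (log2 of scaled signal) of the 7 members on each array of 4T1, 4TO7, 168FARN and 67NR, each panel on its own axis, with the mean of 3 arrays as a bar, arrays that were not well above background as open circles and the floor as a dotted line. miR-15a, miR-15b and miR-16 are highest in 67NR, miR-195 and miR-497 in 168FARN, miR-322 is lowest in 4T1 with this probe (its second probe puts 67NR lowest), and miR-503 lies at the floor in 67NR.

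miR-15a and miR-16 were highest in 67NR. miR-15a read -0.85, -0.81 and -0.80 in 4T1, -0.99, -1.0 and -1.01 in 4TO7, -0.98, -0.91 and -1.04 in 168FARN, and 1.09, 1.17 and 1.11 in 67NR. The arrays of 67NR lay far above the 9 others, which covered a narrow band. miR-15a was 3.84-fold lower in 4T1 than in 67NR (-1.94 ± 0.04; limma adjusted p = 3.06e-13), 4.35-fold lower in 4TO7 (-2.12 ± 0.04) and 4.29-fold lower in 168FARN (-2.10 ± 0.04). Within the band 4T1 was the highest, by 0.18 over 4TO7 (1.13-fold; limma adjusted p = 0.000952) and by 0.16 over 168FARN (1.12-fold; limma adjusted p = 0.00155), while total gene signal in place of the brightest probe gave 0.04 and 0.03, neither called. 4TO7 and 168FARN overlapped, with a difference of -0.02 (95% confidence interval -0.10 to 0.06; limma adjusted p = 0.687). With no scaling that difference was called, at -0.64 (limma adjusted p = 0.00261).

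miR-16, which is known for targeting Bcl2 and cyclin mRNAs, read 0.28, 0.30 and 0.33 in 4T1, -0.01, -0.15 and -0.02 in 4TO7, 0.65, 0.76 and 0.62 in 168FARN, and 2.46, 2.49 and 2.46 in 67NR. No arrays of 2 lines overlapped, and the order from the top was 67NR, 168FARN, 4T1, 4TO7. miR-16 was 4.49-fold lower in 4T1 than in 67NR (-2.17 ± 0.05; limma adjusted p = 1.19e-12), 5.77-fold lower in 4TO7 (-2.53 ± 0.05) and 3.47-fold lower in 168FARN (-1.80 ± 0.05). Among the other lines 4TO7 was 1.66-fold below 168FARN and 4T1 was 1.29-fold below 168FARN and 1.29-fold above 4TO7. The step between 4T1 and 168FARN was not called with the 75th percentile of all probes (-0.14) or with no scaling (-0.27). For both miR-15a and miR-16 the lower levels of 4T1, 4TO7 and 168FARN than of 67NR were called in each alternative processing, the smallest in 4T1 being -0.64 for miR-15a and -0.86 for miR-16. An endothelial marker, miR-126-3p, was likewise highest in 67NR (-4.64 in 4T1, -4.74 in 4TO7, at the floor of -5.58 in 168FARN, and -1.96 in 67NR), and the other marker of that list, miR-126-5p, was not tested. The summed signal of the 2 endothelial markers was 40.7 to 52.1 units in 4T1, 23.4 to 29.9 in 4TO7, 2.67 to 5.77 in 168FARN and 101 to 130 in 67NR, and its part in these results was not tested.

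miR-15b, which lies in Smc4, read 1.34, 1.33 and 1.38 in 4T1, 1.46, 1.39 and 1.51 in 4TO7, 1.19, 1.32 and 1.13 in 168FARN, and 2.19, 2.30 and 2.15 in 67NR. The arrays of 67NR were again the highest, and the other lines lay close together. miR-15b was 1.82-fold lower in 4T1 than in 67NR (-0.86 ± 0.06; limma adjusted p = 3.82e-08), a difference that turned to 0.44 with no scaling and 0.10 with quantile scaling. With the 75th percentile of all probes it was not called (-0.15; limma adjusted p = 0.139). In 4TO7 it was 1.69-fold lower than in 67NR (-0.76), not called with no scaling or quantile scaling, and in 168FARN it differed from 67NR by -1.0 (2.00-fold lower), turning to 0.20 with no scaling. 4TO7 exceeded 168FARN by 0.24 (limma adjusted p = 0.00215), turning to -0.37 with no scaling and lost with the 75th percentile of all probes (0.19; limma adjusted p = 0.0714) and quantile scaling (0.071; limma adjusted p = 0.154). 4T1 differed from 4TO7 by -0.10 (95% confidence interval -0.23 to 0.02; limma adjusted p = 0.138), turning to a called 0.62 with no scaling and 0.16 with quantile scaling. 4T1 exceeded 168FARN by 0.14 (limma adjusted p = 0.0438), a call lost in 16 of 28 alternatives, among them the fit without 168FARN replicate 3 (0.10; limma adjusted p = 0.164).

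miR-15b*, the strand of the same hairpin that is usually discarded, read -4.09, -4.03 and -4.00 in 4T1, -4.03, -4.19 and -4.07 in 4TO7, -4.61, -4.45 and -4.60 in 168FARN, and -4.03, -4.02 and -3.96 in 67NR. 168FARN was the low line, and the arrays of 4T1 and 4TO7 lay beside those of 67NR, though 168FARN turned to 0.65 above 67NR with no scaling. With the 75th percentile of all probes 168FARN was not called different from 67NR (-0.07). The difference from 67NR was -0.04 in 4T1 (95% confidence interval -0.16 to 0.08; limma adjusted p = 0.598) and -0.09 in 4TO7 (95% confidence interval -0.22 to 0.03), where that of miR-15b was -0.86 and -0.76. In 4T1 it moved to a called 1.26 with no scaling and 0.55 with quantile scaling, where miR-15b gave 0.44 and 0.10, and to a called -0.69 with normexp. In 4TO7 it moved to a called 0.49 with no scaling, 0.44 with quantile scaling and -0.34 with normexp. The 75th percentile of all probes gave a called 0.67 in 4T1 and 0.33 in 4TO7. With total gene signal miR-15b* was called lower than 67NR in both lines (-0.53 in 4T1 and -0.34 in 4TO7). miR-15b* lies 38 bases from miR-15b by their 3′ ends, and the difference between the 2 strands was not itself tested. Of 7 listed passenger strands 5 were on the array, and those of miR-15a, miR-16, miR-322 and miR-503 were read on all 3 arrays of no line.

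**Figure D2:**
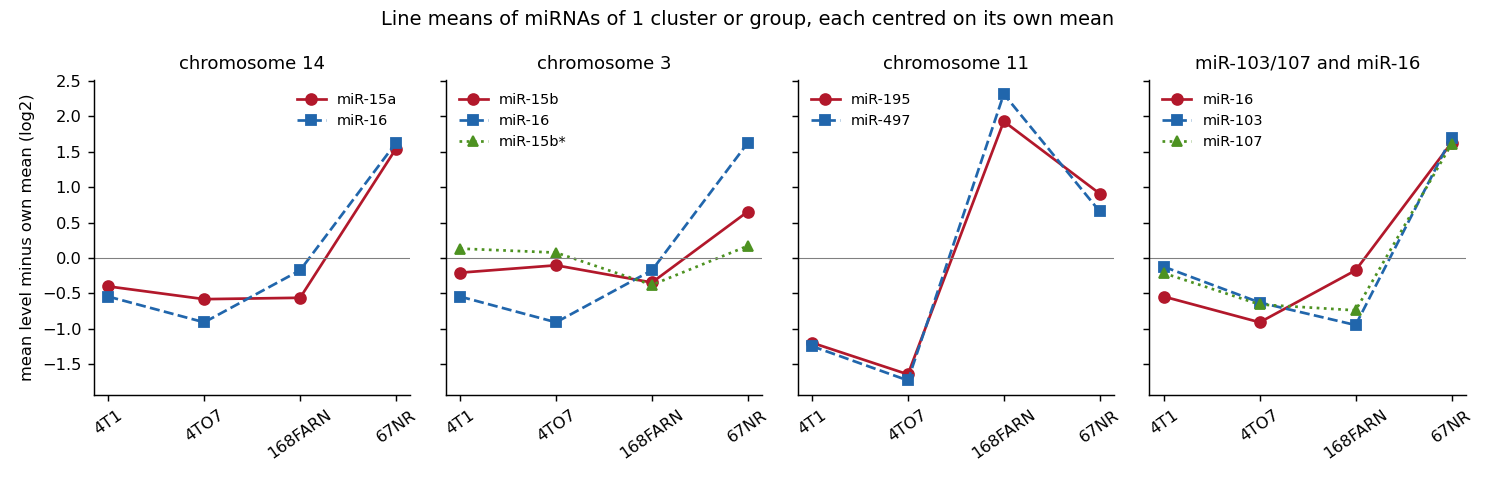
Mean level of 3 arrays in 4T1, 4TO7, 168FARN and 67NR (log2), each miRNA centred on its own mean over the lines, for the members of chromosomes 14, 3 and 11 and for miR-103 and miR-107 beside miR-16. miR-16, the sum of its 2 copies, is drawn with both chromosome 14 and chromosome 3. miR-195 and miR-497 run together with a peak in 168FARN, while miR-16 follows miR-15a more closely than miR-15b.

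The pair on chromosome 11 had another profile. miR-195 read -4.82, -4.84 and -4.78 in 4T1, -5.22, -5.44 and -5.13 in 4TO7, -1.69, -1.60 and -1.80 in 168FARN, and -2.70, -2.60 and -2.84 in 67NR. 168FARN was the highest line and 67NR the second, and 4T1 and 4TO7 were close to the floor of -5.58. On 1 of the 3 4TO7 arrays the miRNA was not well above background. In 4T1 miR-195 was 8.70-fold lower than in 168FARN (-3.12 ± 0.08; limma adjusted p = 2.66e-11) and 4.29-fold lower than in 67NR (-2.10). In 4TO7 it was 11.8-fold lower than in 168FARN (-3.57) and 5.85-fold lower than in 67NR (-2.55). 168FARN exceeded 67NR by 1.02 (2.03-fold; limma adjusted p = 3.53e-07).

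miR-497, whose gene lies 331 bases from miR-195 by the 3′ ends of the mature strands, read -5.02, -5.06 and -4.86 in 4T1, -5.41, -5.58 and -5.39 in 4TO7, -1.42, -1.35 and -1.5 in 168FARN, and -3.20, -2.94 and -3.10 in 67NR. The order of the lines was that of miR-195, and no 4TO7 array read it. Where a line was not read, a fold is a lower bound, taken on each unread array against the lowest signal that counted as read there, or against the miRNA's own level where that is higher. miR-497 was 11.7-fold lower in 4T1 than in 168FARN (-3.55 ± 0.08; limma adjusted p = 4.70e-12) and 3.73-fold lower in 4T1 than in 67NR (-1.90). In 4TO7 it was at least 15.2-fold lower than in 168FARN and at least 4.84-fold lower than in 67NR. 168FARN exceeded 67NR by 1.65 (3.15-fold).

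All differences of miR-195 and miR-497 between 4T1 or 4TO7 and 168FARN or 67NR, and between 168FARN and 67NR, kept their direction and call in each alternative that gave a value. The smallest difference of 4T1 from 168FARN was -1.83 for miR-195 and -2.07 for miR-497. The order of the 2 lowest lines was less firm. 4T1 exceeded 4TO7 by 0.45 in miR-195 (1.36-fold; limma adjusted p = 0.000803), turning to -0.24 with the normexp background correction and lost with a doubled floor. It exceeded 4TO7 at least 1.3-fold in miR-497, turning to -0.21 with normexp and likewise lost with a doubled floor. Both calls were also lost with the second probe, which for miR-195 and miR-497 lay at the floor in 4T1 and 4TO7.

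The tested markers of mesenchymal cells were highest in 168FARN, as the pair was. Of 7 such markers 6 were on the array, and miR-214 and miR-145 among them were at the floor on all arrays of every line. The 4 tested were miR-199a-5p, miR-199b*, miR-143 and miR-140, of which only miR-140 was read outside 168FARN. All 4 were called lower in 4T1 and in 4TO7 than in 168FARN, and all 4 higher in 168FARN than in 67NR. With normexp miR-143 was not called lower in 4T1 than in 168FARN (-0.18). Normexp turned the difference of 168FARN from 67NR to -0.27 for miR-143 and -0.21 for miR-140. Total gene signal gave -0.0037 for miR-140 in 168FARN against 67NR, not called. The summed signal of the list was 90.5 to 114 units in 4T1, 54.1 to 67.0 in 4TO7, 329 to 533 in 168FARN and 47.4 to 63.3 in 67NR. miR-199a-5p, miR-199b* and miR-143 were at the floor on all arrays of 4T1, 4TO7 and 67NR, so in 67NR, the second highest line for miR-195 and miR-497, these markers were not read. 1 blood marker of 6 and 1 muscle marker of 4 were also read in 168FARN and in no other line. The part of these markers in the 168FARN values was not tested.

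**Figure D3:**
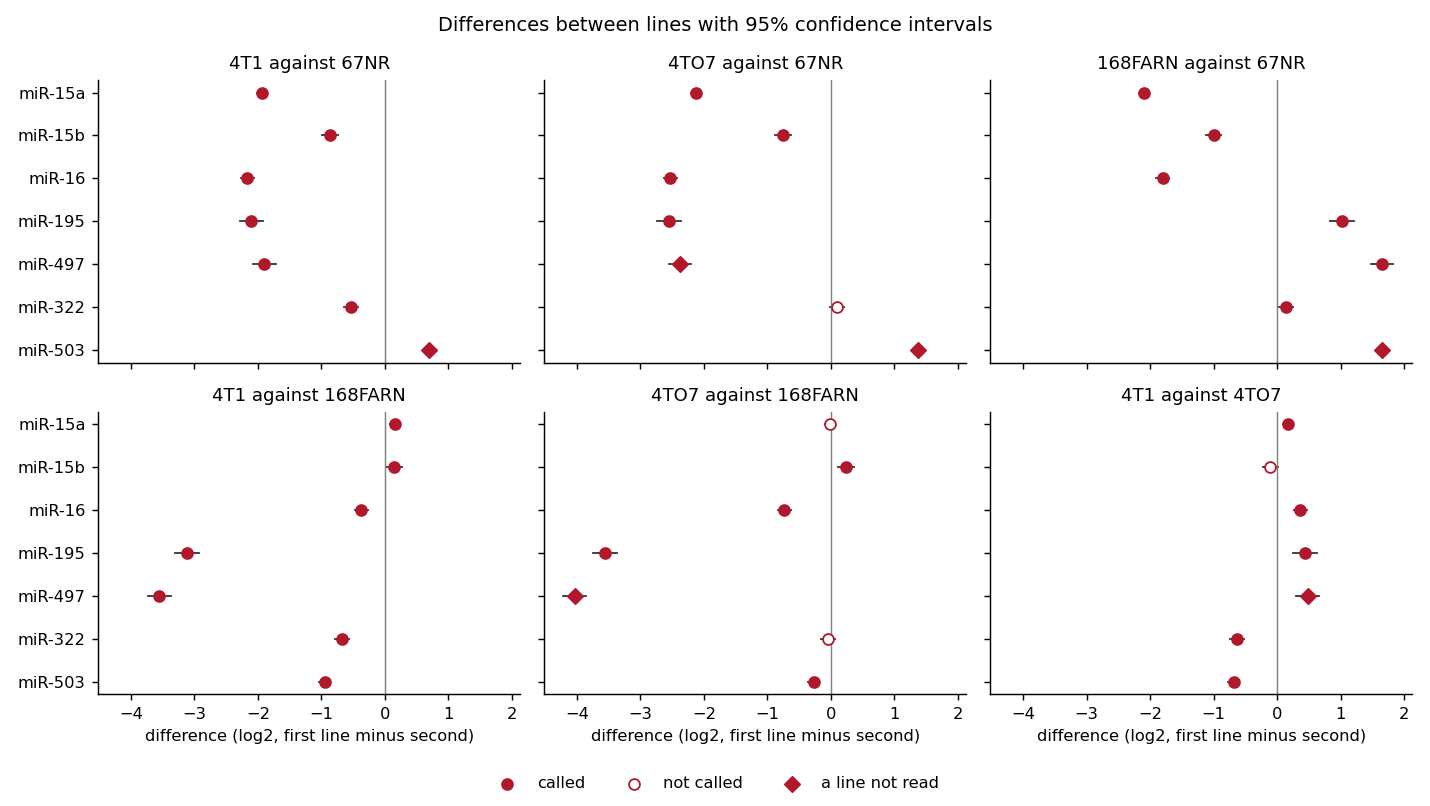
Difference (log2, first line minus second) of each member in the 6 comparisons of 2 lines, with 95% confidence intervals, filled where called and open where not, and diamonds where 1 line did not read the miRNA. The differences of miR-195 and miR-497 from 168FARN are the widest, and in the top row miR-15a and miR-16 stand near -2 and miR-15b near -1 in all 3 panels, miR-15b reversing with no scaling in 4T1 and 168FARN and with quantile scaling in 4T1, and miR-322 changing with the probe used.

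The X-linked pair was lower in 4T1 than in 4TO7 and 168FARN. miR-322 read -2.38, -2.35 and -2.33 in 4T1, -1.74, -1.78 and -1.67 in 4TO7, -1.69, -1.57 and -1.76 in 168FARN, and -1.82, -1.79 and -1.86 in 67NR. 4T1 was lowest on all 3 arrays and the other lines lay close together. miR-322 was 1.60-fold lower in 4T1 than in 168FARN (-0.68 ± 0.05; limma adjusted p = 1.44e-07), a call kept in each of 28 alternatives, and 1.55-fold lower than in 4TO7 (-0.63; limma adjusted p = 6.22e-07), which turned to 0.09 with no scaling. 4TO7 and 168FARN overlapped, with a difference of -0.05 (95% confidence interval -0.16 to 0.06; limma adjusted p = 0.394). With no scaling that difference was called, at -0.67 (limma adjusted p = 0.00248).

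Against 67NR the miR-322 values depended on the probe and on the scaling. With the brightest probe 4T1 was 1.45-fold lower than 67NR (-0.53 ± 0.05; limma adjusted p = 8.10e-07), but 0.89 higher with the second probe (limma adjusted p = 3.49e-08). It was also 0.18 higher with the mean of both probes, 0.77 with no scaling, 0.24 with quantile scaling and, not called, 0.18 with the 75th percentile of all probes. 4TO7 differed from 67NR by 0.09 with the brightest probe (95% confidence interval -0.01 to 0.20; limma adjusted p = 0.0972) and by 1.52 with the second. 168FARN exceeded 67NR by 0.14 with the brightest probe (limma adjusted p = 0.0153) and by 1.55 with the second. That smaller value was lost with a slide block (0.13; limma adjusted p = 0.125), on the slide of 67NR and 168FARN replicate 1 alone (0.13; limma adjusted p = 0.074) and without 67NR replicate 3 (0.12; limma adjusted p = 0.0551), and it turned to -0.08 with normexp.

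The brightest probe spanned all 22 bases of miR-322 and the second probe 21, beginning at base 2. In signal units the second probe read 160, 163 and 130 in 4T1, 133, 132 and 161 in 4TO7, 268, 233 and 171 in 168FARN, and 36.7, 34.4 and 28.0 in 67NR. On the same arrays the brightest probe read 210, 222 and 176 in 4T1, 180, 180 and 211 in 4TO7, 375, 313 and 233 in 168FARN, and 130, 130 and 98.6 in 67NR. The second probe thus gave 73.2 to 76.0% of the brightest in 4T1, 73.3 to 76.6% in 4TO7, 71.4 to 74.4% in 168FARN and 26.5 to 28.4% in 67NR. The arrays of 67NR stood alone, and 168FARN replicate 1, on the same slide, had the ratio of its own line. For miR-15a this share stayed between 86.9 and 90.5% over all 12 arrays, for miR-15b between 67.8 and 73.2%, and for miR-16 between 31.1 and 34.8%.

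A ranking of the gap between probes was added after these values were seen. Of 70 miRNAs with 2 probes read on all 12 arrays, miR-322 had the widest gap between its 2 estimates in each comparison with 67NR: 1.42 in 4T1, 1.43 in 4TO7 and 1.4 in 168FARN, where the median gap was 0.09, 0.08 and 0.08. Between the other lines its gap was 0.01 to 0.03 in size, ranked 47 to 63 of 70. miR-712 had the next widest gap in the 3 comparisons with 67NR, at 1.14, 1.32 and 1.31. What sets the ratio of the miR-322 probes in 67NR was not tested.

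**Figure D4:**
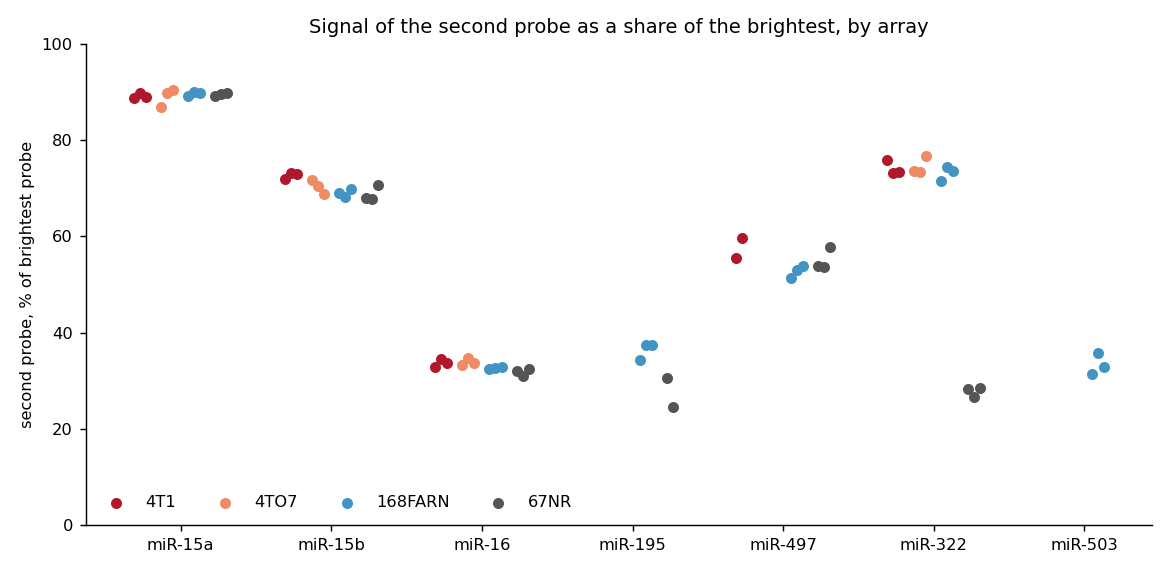
Signal of the second probe as a percentage of the brightest probe of the same member, 1 point per array on which both were well above background, coloured by line. For miR-322 the 9 arrays of 4T1, 4TO7 and 168FARN lie at 71.4 to 76.6% and the 3 arrays of 67NR at 26.5 to 28.4%, while the shares of miR-15a, miR-15b and miR-16 differ little between lines.

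miR-503, the member with the altered seed, read -4.82, -4.89 and -4.94 in 4T1, -4.23, -4.16 and -4.21 in 4TO7, -3.94, -3.86 and -3.98 in 168FARN, and lay at the floor of -5.58 on all 3 arrays of 67NR, where it was not well above background. No arrays of 2 lines overlapped, and the order from the top was 168FARN, 4TO7, 4T1, 67NR. In unscaled units its mean signal was 35.4 in 4T1, 34.2 in 4TO7, 64.2 in 168FARN and -1.48 in 67NR. miR-503 was 1.93-fold lower in 4T1 than in 168FARN (-0.95 ± 0.04; limma adjusted p = 1.18e-09) and 1.60-fold lower in 4T1 than in 4TO7 (-0.68; limma adjusted p = 5.55e-08), which turned to 0.04 with no scaling. 4TO7 was 1.21-fold below 168FARN (-0.27; limma adjusted p = 7.56e-05), turning to 0.20 with normexp and 0.06 with quantile scaling.

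Against 67NR the rise of miR-503 was at least 1.86-fold in 168FARN, turning to -0.08 with normexp, and at least 1.54-fold in 4TO7, where normexp gave 0.12 and no call (limma adjusted p = 0.131). In 4T1 it was called over the floor (0.70; limma adjusted p = 1.06e-08), turning to -0.41 with normexp and lost with a doubled floor, and the lowest level that the 67NR arrays could read allows no fold. The second probe of miR-503 was read on all 3 arrays of 168FARN alone and called none of these differences. The brightest probe spans bases 8 to 23 of the 23, so of the seed it holds only the base at which miR-503 differs.

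Both members of the X-linked cluster were thus lower in 4T1 than in 4TO7 and 168FARN, with the exceptions named above, but in 67NR miR-322 was read on all 3 arrays and miR-503 on none, 279 bases apart by the 3′ ends of the mature strands. Of 11 further names listed for that cluster 7 were on the array and 3 were tested (miR-450a-5p, miR-542-3p and miR-542-5p), and miR-351 was read on all 3 arrays of no line. All 3 tested were called lower in 4T1, in 4TO7 and in 168FARN than in 67NR. With no scaling 3 of these 9 differences kept their sign without a call, those of miR-450a-5p in 4T1 (-0.0034) and 4TO7 (-0.20) and of miR-542-3p in 4T1 (-0.24).

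miR-450a-5p, which lies 6100 bases from miR-322, read -5.13, -5.03 and -4.92 in 4T1, -4.61, -4.36 and -4.55 in 4TO7, -5.29, -5.20 and -5.54 in 168FARN, and -3.76, -3.77 and -3.64 in 67NR. The highest line was 67NR, where miR-503 was at the floor. miR-450a-5p was 2.47-fold lower in 4T1 than in 67NR (-1.31; limma adjusted p = 1.28e-07), with differences of -0.78 in 4TO7 and -1.62 in 168FARN. It was lower in 4T1 than in 4TO7 (-0.52), as miR-503 was, turning to 0.20 with no scaling. miR-542-3p, 4891 bases from miR-322, lay at the floor on all arrays of 4T1 and 168FARN, between -5.56 and -5.34 and not well above background in 4TO7, and at -4.24, -4.11 and -4.10 in 67NR. At the floor it was still well above background on all 3 arrays of 4T1 and on 1 of 168FARN. Its mean unscaled signal was 20.1 units in 4T1, 14.6 in 4TO7 and in 168FARN, and 23.7 in 67NR. miR-542-5p lay at the floor on all arrays of 4T1, 4TO7 and 168FARN and at -4.28, -4.11 and -4.20 in 67NR. It was at least 2.60-fold lower in 4T1, at least 2.30-fold lower in 4TO7 and at least 2.60-fold lower in 168FARN than in 67NR.

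**Figure D5:**
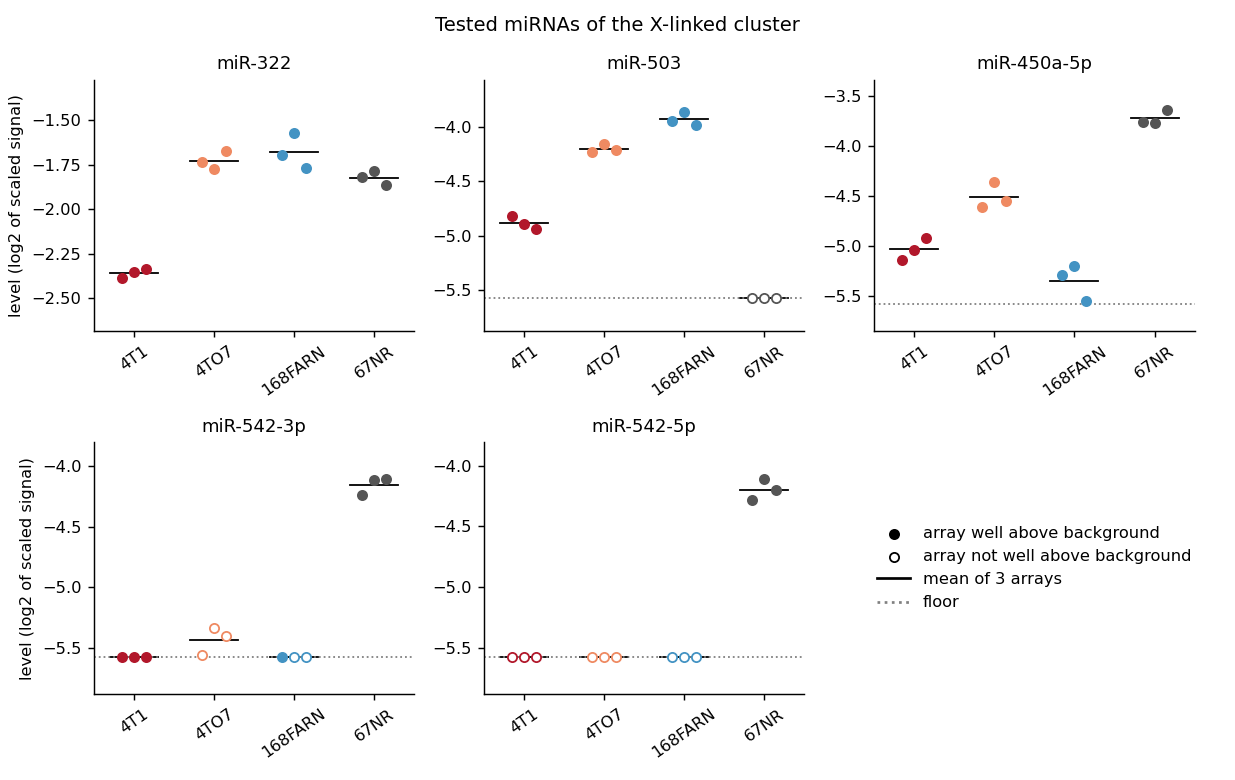
Level (log2 of scaled signal) on each array of 4T1, 4TO7, 168FARN and 67NR of miR-322, miR-503 and the 3 tested neighbours, each panel on its own axis, with symbols as in the plot of the members. miR-503 is at the floor in 67NR, where miR-450a-5p, miR-542-3p and miR-542-5p are highest, and miR-322 is shown for its brightest probe, whose second probe is lower in 67NR than in the other lines.

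miR-103 and miR-107, made from introns of pantothenate kinase genes, belong to the wider group because their sequence holds the same AGCAGCA run 1 base nearer the 5′ end. They are printed to show that shift, which gives them the seed GCAGCAU.

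miR-103: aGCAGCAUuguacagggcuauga

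miR-107: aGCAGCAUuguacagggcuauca

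miR-103 read 0.50, 0.49 and 0.53 in 4T1, 0.00, -0.06 and 0.06 in 4TO7, -0.30, -0.23 and -0.41 in 168FARN, and 2.33, 2.37 and 2.28 in 67NR. It was highest in 67NR, as miR-15a and miR-16 were. miR-103 was 3.53-fold lower in 4T1 than in 67NR, 5.01-fold lower in 4TO7 and 6.24-fold lower in 168FARN, and miR-107 was 3.53-fold, 4.79-fold and 5.07-fold lower in the same lines. Between 4T1 and 168FARN the direction differed from that of miR-16: miR-103 was 1.77-fold and miR-107 1.44-fold higher in 4T1, where miR-16 was 1.29-fold lower.

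Likeness of 2 miRNAs was measured as the root-mean-square (RMS) difference of their log2 levels over the 12 arrays, each centred on its own mean. The arrays share 1 scaling, and 12 arrays hold 4 lines. miR-195 and miR-497 were nearest to each other among 223 miRNAs, at 0.24, and the next nearest, miR-181b for miR-195 and miR-883a-3p for miR-497, lay at 0.84 and 0.89. The medians over all tested miRNAs were 1.55 for miR-195 and 1.73 for miR-497.

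The other pairs of 1 cluster were less alike. miR-15a stood at rank 7 for miR-16, at 0.27, and miR-16 at rank 19 for miR-15a, behind miR-425, miR-582-5p and miR-197, which were nearest to miR-15a at 0.09 to 0.11. miR-107 had rank 4 for miR-15a, at 0.14. For miR-16 the nearest were miR-106b, miR-423-5p and miR-222, at 0.16 to 0.23. miR-15b and miR-16, which share a transcript on chromosome 3, lay at 0.66, and miR-16 ranked 84 for miR-15b. The nearest to miR-15b were miR-378*, miR-7a* and miR-10a*, at 0.11 to 0.15, and miR-15b* had rank 26, at 0.31. miR-322 and miR-503 lay at 0.59, with miR-503 at rank 65 for miR-322 and miR-322 at rank 38 for miR-503. These values and the neighbours of miR-322 rest on its brightest probe, which averaged -1.82 in 67NR, where the second probe averaged -3.67. Likeness with the second probe was not measured, so how alike this pair is depends on the probe. Nearest to miR-322 were miR-26b, miR-465c-5p and miR-140, at 0.17 to 0.25, and nearest to miR-503 were miR-872, miR-22 and miR-24-2*, at 0.15 to 0.26. The nearest non-members also included miR-125a-3p and miR-28 for miR-195, and miR-743b-3p and miR-880 for miR-497.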

How the data were processed

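One-colour arrays from 3 repeats of each of 4 lines were hybridised with 100 ng of Trizol total RNA under Agilent's standard protocol, per the labels. The deposited intensity of a spot is the processed signal of Feature Extraction 10.2.1.3, which per the file headers had background subtracted and arrays left unscaled, and other columns deposited by the authors hold that software's marks of outlier and well-above-background spots. The value table of the series held the same intensities (largest difference: 0).

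Control spots and 284 to 508 outlier spots an array were left out. Spots of each of 1712 probes were averaged and divided by the array's 75th percentile over 170 probes read on all 12 arrays. Values under a floor of 0.0209 were raised to it, and log2 was taken. The brightest probe represented a miRNA. A miRNA was tested if read on all 3 arrays of some line. limma 3.58.1 (R 4.3.3, with data.table, version 1.17.8) fitted 4 lines to 12 arrays (8 residual degrees of freedom), and p-values are two-sided and adjusted over all 224 miRNAs, separately in 7 comparisons. The fit was tested on simulated data. The number of arrays limits the precision, and 15.2 to 21.1% of probes were read on an array. Values entering at the floor have no spread, so their p-values may be too small. Comparisons share lines and are not independent.

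The rule for the miRNAs named was all 7 members, the tested miRNAs of the lists (passenger strands, X-linked neighbours, miR-103/107) and the 3 nearest non-members by likeness, with miR-107, miR-712 and single markers named after their values were seen. Members, lists and alternatives were chosen with earlier results of these data known. Alternatives were other scalings, normexp with an offset of 50, other probe summaries, filters and floors, slide and replicate blocks, arrays left out and another variance model. Probe targets in the files carry mm9 positions. The mature sequences and printed positions are RefSeq's in GRCm38.p6, and the distances given in both builds were equal; that of miR-15b and miR-16 on chromosome 3 was not compared.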

Additional observations from a re-analysis of the deposited data

How the results depend on the processing

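Of 49 member differences, 21 kept direction and call in every alternative, and 17 reversed in at least 1. Among the alternatives, no scaling moved the median of all tested miRNAs most among the lines other than 67NR (to 0.34 in 4T1 against 4TO7 and -0.50 in 4TO7 against 168FARN, from 0 in both), and normexp moved it to -0.62 in 4T1 and in 168FARN against 67NR. With no scaling the reversed differences were, in 4T1 against the mean, miR-15a 0.18, miR-15b 0.43, miR-322 0.095 and miR-503 0.17; in 4T1 against 4TO7, miR-15b 0.62, miR-322 0.092 and miR-503 0.038; in 4T1 against 67NR, miR-15b 0.44 and miR-322 0.77; in 4TO7 against 168FARN, miR-15b -0.37; and in 168FARN against 67NR, miR-15b 0.20. With quantile scaling they were miR-15b 0.10 and miR-322 0.24 (4T1 against 67NR), miR-15b 0.16 (4T1 against 4TO7 and against the mean) and miR-503 0.056 (4TO7 against 168FARN). The 75th percentile of all probes gave miR-322 0.18 (4T1 against 67NR) and miR-15b 0.13 (4T1 against the mean). Normexp gave miR-195 -0.24 and miR-497 -0.21 (4T1 against 4TO7), miR-322 -0.084 and miR-503 -0.077 (168FARN against 67NR), and miR-503 -0.41 (4T1 against 67NR) and 0.20 (4TO7 against 168FARN). For miR-322 in 4T1 against 67NR the mean of all probes gave 0.18 and the second probe 0.89. Total gene signal gave miR-503 0.046 against the mean. Without the 67NR arrays miR-15a gave 0.17 and miR-15b 0.017 against the mean. The cause of these reversals was not tested.

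Restricting to miRNAs read on all 12 arrays leaves 4 members, of which 4 were called in 4T1 against 67NR, against 168FARN and against the mean and in 168FARN against 67NR, 3 in 4T1 against 4TO7 and in 4TO7 against 67NR, and 2 in 4TO7 against 168FARN. With no scaling 4 were called in 4T1 against 168FARN and 3 against the mean. The 75th percentile of all probes called 4 against the mean, and quantile scaling 3 in 4TO7 against 168FARN.

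The split of calls also moved: in 4T1 against 67NR 3 members were higher and 4 lower with no scaling or quantile scaling, and 7 were lower with normexp, while in 4T1 against 4TO7 5 were higher and 0 lower with no scaling, and 2 higher and 4 lower with normexp. Leaving out each array in turn gave 7 calls in 4T1 against 67NR and against the mean, 6 to 7 in 4T1 against 168FARN, in 4TO7 against 67NR and in 168FARN against 67NR, 6 in 4T1 against 4TO7 and 5 in 4TO7 against 168FARN. Without 168FARN replicate 2, miR-322 was called higher in 4TO7 than in 67NR.

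The replicate numbers did not pair the arrays: deviations of same-numbered arrays correlated at -0.80 to 0.56, with 6 of 18 pairs over 0.1, and 2 of 12 arrays correlated best with their own number. The replicate block took away 1 call among the 49 member differences, that of miR-15b in 4T1 against 168FARN (adjusted p = 0.062), and left 6 calls there. A slide block took away this call and that of miR-322 in 168FARN against 67NR. The comparison on the slide of 67NR and 168FARN replicate 1 was added after the data were seen and rests on 1 array of 168FARN, assumed to vary like 67NR. miR-195, miR-497 and miR-503 lie near the lowest readable level in 4T1 and 4TO7, which limits how well they can be ordered there.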
